A study of Homo sapiens with 12 samples.

Results

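Glucuronidation is the coupling of glucuronic acid to small molecules, which makes them more soluble in water and lets them leave the liver in bile or blood. Levels of 7 genes of this reaction, taken by their gene symbols, were described in human liver spheroids exposed to total parenteral nutrition (TPN): 6 UDP-glucuronosyltransferases (UGTs), which transfer the sugar acid, and UGDH, which makes the donor UDP-glucuronic acid. All 7 were among the 16705 genes of the deposited table, and 6 of them were among the 11713 genes tested. UGT2B15 was too low to test.

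The spheroids were co-cultures of C3A cells, a clone of the HepG2 hepatoma line, and LX-2 cells, an immortalized line of activated hepatic stellate cells. Each library came from pooled spheroids, and exposure began after the spheroids had formed. The 4 groups were untreated spheroids at 24 h, spheroids given 1% TPN for 24 h, untreated spheroids at 144 h and spheroids given 1% TPN for 144 h, with 3 libraries each, 12 in all. TPN is an intravenous feeding mixture of amino acids with electrolytes, glucose, a lipid emulsion, trace elements and vitamins, given here as 1 mixture, so that the parts of single components were not separable in these libraries. All groups shared the same 2 cell lines and the same serum-containing medium, and both lines are immortal and stand for 1 hepatoma and 1 stellate cell source.

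UGTs sit in the membrane of the endoplasmic reticulum with the active site on its inner side. UGT1A1 is the enzyme that conjugates bilirubin, the yellow product of heme breakdown, and its loss in people causes unconjugated jaundice. UGT1A6 acts on small planar phenols, UGT2B7 on morphine, bile acids and steroids, UGT2B4 on bile acids, UGT2B10 on a nitrogen of compounds such as nicotine, and UGT2B15 on androgens. UGDH oxidizes UDP-glucose to UDP-glucuronic acid, which all of these enzymes use.

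The genes of the UGT1A family are built from a first exon of their own joined to the same later exons, which limits how well a short read can be given to 1 of them. In the GENCODE v44 annotation of GRCh38, 9 UGT1A genes on chromosome 2 used the same exons 2 to 5, of 1479 bases in all. UGT1A1 spanned chr2:233760270-233773300 on the plus strand, with a first exon of 882 bases, and UGT1A6 spanned chr2:233692890-233773300, with a first exon of 976 bases. The shared exons thus made up 62.6% of the UGT1A1 transcript and 60.2% of the UGT1A6 transcript. The joins of exon 1 to exon 2 below show this for both members and for UGT1A3, with the gene's own last 30 bases of exon 1 in lower case and the 30 bases of exon 2, common to every UGT1A gene, in capitals.

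UGT1A1: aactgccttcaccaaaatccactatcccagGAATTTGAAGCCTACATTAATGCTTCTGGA
UGT1A6: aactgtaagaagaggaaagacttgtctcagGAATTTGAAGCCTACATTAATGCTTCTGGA
UGT1A3: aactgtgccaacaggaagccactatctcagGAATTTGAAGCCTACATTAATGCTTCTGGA

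The lower-case parts of the UGT1A1 and UGT1A6 joins were equal at 14 of 30 positions, and the capitals, at chr2:233767034-233767063, were identical in all 3. Of the 50-base windows of the UGT1A1 transcript, 38.0% occurred in no other annotated gene, against 40.3% for UGT1A6, 72.9% for UGT2B15, 78.0% for UGT2B10, 93.3% for UGT2B7, 96.8% for UGT2B4 and 99.7% for UGDH. Reads outside those windows can be split between genes by the authors' counting, so the levels of UGT1A1 and UGT1A6 apart from each other are uncertain, and the sum over the family is given beside them. The 4 UGT2B members and UGDH lie on chromosome 4, with UGDH at chr4:39498755-39527439 on the minus strand. In the same annotation UGT2B15 was at chr4:68646597-68670652 (minus), UGT2B10 at chr4:68815994-68832023 (plus), UGT2B7 at chr4:69096474-69112987 (plus) and UGT2B4 at chr4:69480165-69495905 (minus). The deposited table places UGT2B10 and UGT2B15 on an alternate scaffold of that region, and their positions here are those of the annotation.

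Because UGT1A1 and UGT1A6 were both higher after 144 h of TPN (below), sequence upstream of each start is shown, from RefSeq (GRCh38.p14). For UGT1A1 it is chr2:233760020-233760219 on the plus strand, 200 bases that stop short of the start by 50 bases not shown. For UGT1A6 it is chr2:233692640-233692889 on the plus strand, 250 bases that run up to the start of its canonical transcript. Capitals mark matches on either strand to TGACNNNGC, the core of the antioxidant response element read by NRF2, and to GCGTG, the core of the element read by the aryl hydrocarbon receptor.

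UGT1A1: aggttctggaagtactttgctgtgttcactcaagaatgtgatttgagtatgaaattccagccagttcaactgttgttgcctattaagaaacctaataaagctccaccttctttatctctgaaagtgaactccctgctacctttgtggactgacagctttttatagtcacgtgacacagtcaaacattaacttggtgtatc
UGT1A6: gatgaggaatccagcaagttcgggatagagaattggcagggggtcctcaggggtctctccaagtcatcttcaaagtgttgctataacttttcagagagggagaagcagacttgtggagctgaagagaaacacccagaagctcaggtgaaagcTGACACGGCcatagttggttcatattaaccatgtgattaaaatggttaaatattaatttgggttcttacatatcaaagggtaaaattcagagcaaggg

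The UGT1A6 stretch held 1 match, to the antioxidant core, whose first base lay 98 bases before the start. Neither set of letters occurred in the UGT1A1 stretch, or in its whole window of 300 bases. The window of a second UGT1A6 start, chr2:233691452-233691751, which is the start the deposited table uses, held 0 antioxidant and 1 aryl hydrocarbon match, and that of UGDH 0 and 2. UGT2B10 and UGT1A5 each held 1 antioxidant match and no aryl hydrocarbon match. The windows of UGT1A3, UGT1A4, UGT1A7 and UGT1A9 held only aryl hydrocarbon matches, and those of UGT2B7 and UGT2B15 held neither. Over 35116 promoter windows of 300 bases, the antioxidant letters occurred in 13.3% and the aryl hydrocarbon letters in 36.5%. A match or its absence describes the letters of a window and says nothing of binding.

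Levels are given as FPKM (fragments of a gene scaled to transcript length and to the library's mapped fragments), which compares genes per length. By this measure UGDH stood far above the transferases in every group, and the transferases fell into an abundant pair, UGT2B10 and UGT2B7, and a group of low genes. In untreated spheroids at 24 h the means were 157 FPKM for UGDH (SD 4.23, n = 3), 21.8 for UGT2B10 (SD 0.589), 19.2 for UGT2B7 (SD 0.631), 0.293 for UGT1A1 (SD 0.0929), 0.243 for UGT1A6 (SD 0.127) and 0.0767 for UGT2B4 (SD 0.0208). UGT2B15 was listed at 0 in these libraries. The libraries of UGT2B10 and UGT2B7 did not overlap there, those of UGT1A1 and UGT1A6 did. After 144 h of TPN the order was the same, with UGDH at 217, UGT2B10 at 21.1, UGT2B7 at 14.0, UGT1A1 at 3.15, UGT1A6 at 2.17 and UGT2B4 at 1.23 FPKM, and no neighbours in that order overlapped.

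**Figure D1:**
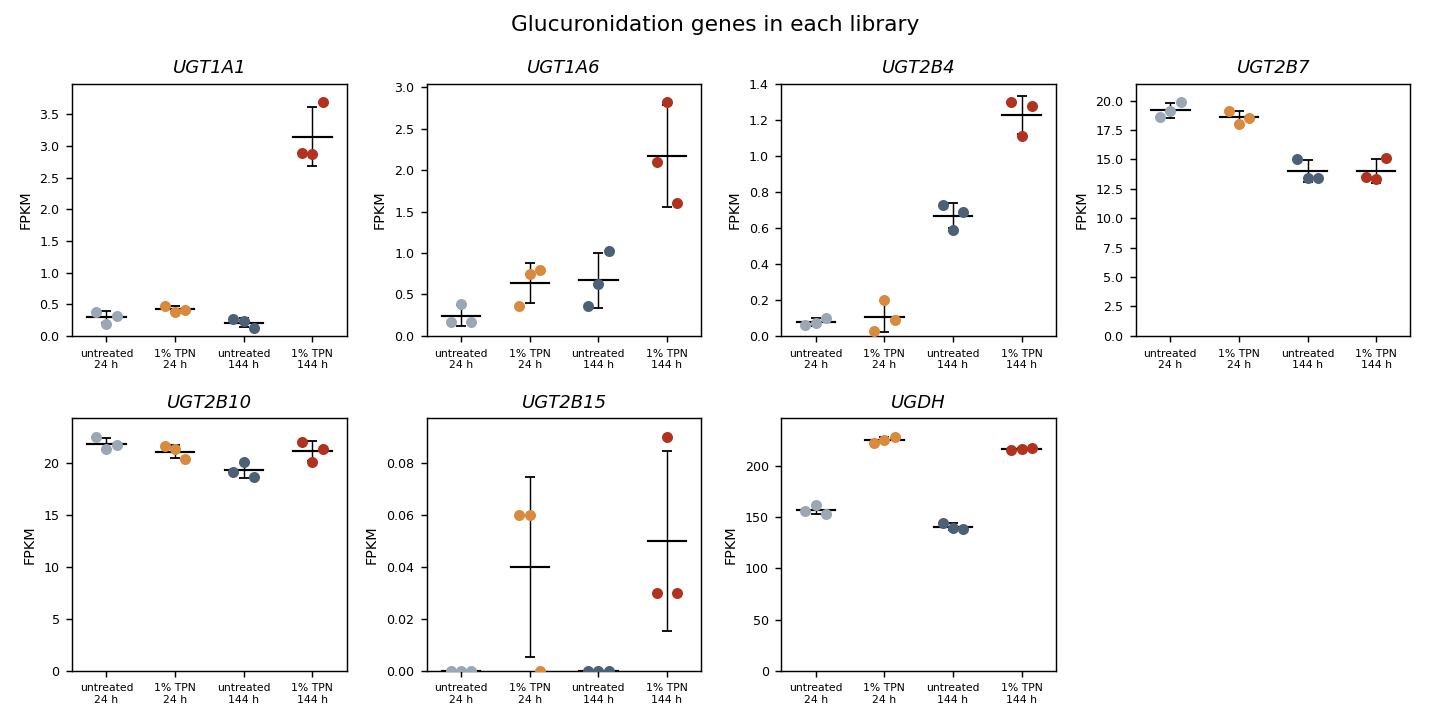
Level (FPKM, linear axes from 0, a scale of its own for each gene) of the 7 genes in each of the 12 libraries. Points are libraries, bars the group mean and whiskers 1 SD (n = 3). UGT1A1 lay between 2.87 and 3.69 in the 3 libraries with TPN at 144 h and at or below 0.47 in the other 9, whereas UGT2B7 was lower at 144 h with and without TPN.

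The levels of UGT1A1, UGT1A6 and UGT2B4 rest on few reads. From the steps between low values in a set of 113 genes, not all of them used, 1 depth was fitted for all libraries, about 1.87e+07 fragments. With it 91.6% of the 559 values used lay within 0.2 of a whole fragment. The depth was chosen to make that share largest and was taken as equal in all libraries, so this is an estimate and not a count. On that scale 1 fragment of UGT1A1 was worth 0.0256 FPKM, and its mean was about 8.21 fragments in untreated and 123 in TPN-exposed spheroids at 144 h. UGT1A6 had about 27.4 and 88.8 fragments there, UGT2B4 22.9 and 42.1, UGT2B7 423 and 424, and UGDH 7288 and 11218.

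After 24 h of TPN, UGDH was higher, and none of the 5 tested transferases among the members passed on its own. The summed UGT1A level was higher without overlap, at an exact permutation p = 0.1, the smallest that 3 against 3 allows (below). The first question of the design was which genes had moved after this short exposure. UGDH was at 156.25, 161.93 and 153.65 FPKM in untreated libraries and at 222.22, 225.96 and 228.49 with TPN. The groups did not overlap, and the libraries with TPN lay close together. Its level was 1.43-fold higher (log2 fold change 0.52, SE 0.027, limma adjusted p = 2.55e-08), below the 0.58 that the study required of a differentially expressed gene on the log2 scale.

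UGT1A6 was at 0.17, 0.39 and 0.17 FPKM in untreated and at 0.36, 0.75 and 0.80 in TPN-exposed libraries at 24 h. The lowest library with TPN lay inside the untreated range. The log2 fold change was 1.10 (SE 0.35, 95% interval 0.34 to 1.86, limma adjusted p = 0.0652), and the exact permutation test of 3 against 3, two-sided, gave p = 0.2. Under limma it passed without replicate 2 of the untreated or replicate 1 of the TPN group at 24 h (adjusted p = 0.0379 and 0.0322) and without untreated 144 h replicate 1 or 3 (adjusted p = 0.0433 and 0.0475).

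UGT1A1 was at 0.37, 0.19 and 0.32 FPKM without and at 0.47, 0.38 and 0.41 with TPN at 24 h. The groups were next to each other without overlap, and the highest untreated and the lowest TPN library were 0.01 FPKM apart, less than 1 fragment on the estimated scale. The log2 fold change was 0.43 (95% interval -0.049 to 0.91, limma adjusted p = 0.267). For UGT2B4 the values ran from 0.06 to 0.10 without and from 0.03 to 0.20 with TPN, about 2.62 and 3.65 fragments on average, and the change was 0.15 on the log2 scale (95% interval -0.43 to 0.72, limma adjusted p = 0.804). It was -0.16 without TPN 24 h replicate 2.

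The 2 abundant transferases stayed within narrow limits at 24 h. UGT2B7 was at 18.60, 19.07 and 19.85 FPKM in untreated and at 19.15, 18.03 and 18.53 in exposed libraries. UGT2B10 was at 22.49, 21.34 and 21.69, and at 21.59, 21.34 and 20.36. For both, the groups overlapped. The 95% intervals of the log2 fold change ran from -0.17 to 0.077 for UGT2B7 and from -0.14 to 0.044 for UGT2B10 (limma adjusted p = 0.693 and 0.545). UGT2B15 was at 0 in every untreated library and at 0.06, 0.06 and 0 with TPN, which is at most about 2 fragments.

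At 24 h none of the 6 tested members was a differentially expressed gene by the rule of the study (a log2 change of more than 0.58 in either direction and an adjusted p under 0.05), which 0.914% of all 11713 tested genes met. By adjusted p alone 1 of the 6, UGDH, passed, beside 10.5% of all genes. UGT1A1, UGT1A6 and UGT2B4 reached the tested set, which needed a mean of 0.5 FPKM over the 12 libraries, only through groups in which they were high, so the counts over members are descriptions. Before adjustment, limma gave UGT1A6 and UGDH a p below 0.05 at 24 h. The share of all genes below 0.05 before adjustment was not counted, and it cannot be less than the 10.5% that passed after it. UGT1A6 did not pass after adjustment.

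After 144 h of TPN, UGT1A1 stood out from all other groups, UGT1A6 and UGT2B4 were also higher, UGDH was higher by about as much as at 24 h, and UGT2B7 was level. UGT1A1 was at 0.27, 0.23 and 0.13 FPKM in untreated libraries and at 2.89, 2.87 and 3.69 with TPN. Every TPN-exposed library was above every other library of the series. The means differed 15.0-fold, from 0.210 (SD 0.0721) to 3.15 FPKM (SD 0.468, n = 3 each), and the log2 fold change of FPKM + 0.1 was 3.41 (SE 0.22, 95% interval 2.93 to 3.89, limma adjusted p = 3.20e-08). Since the untreated level was close to the added 0.1, this number moved with it, to 1.77 with 1 and 3.89 with 0.01 added, and it passed the test in each case.

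The change of UGT1A1 at 144 h exceeded that at 24 h by 2.98 on the log2 scale (SE 0.31, limma adjusted p = 1.67e-05 for the interaction). Its untreated level did not pass between the times (log2 fold change -0.34, adjusted p = 0.179), although without untreated 24 h replicate 2 it did (-0.55, adjusted p = 0.0390).

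UGT1A6 at 144 h was at 0.36, 0.63 and 1.02 FPKM in untreated and at 2.10, 2.82 and 1.60 in exposed libraries. The groups did not overlap, but both were wide. The means differed 3.24-fold (log2 fold change 1.62, SE 0.35, 95% interval 0.86 to 2.38, limma adjusted p = 0.00162), and the log2 value was 0.93 with a pseudocount of 1. UGT1A6 also moved with time alone, with an untreated level 1.13 higher on the log2 scale at 144 h than at 24 h (SE 0.35, adjusted p = 0.0105), a call that was lost without untreated 144 h replicate 3 (adjusted p = 0.0587) and that with a pseudocount of 1 stood at 0.41, under the 0.58 of the rule. The change with TPN did not differ detectably between the times, with an interaction of 0.52 (95% interval -0.56 to 1.60, adjusted p = 0.467).

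Because reads of the shared exons can be divided in different ways among UGT1A genes, the 7 listed ones were summed. The sum was 0.72, 0.75 and 0.69 FPKM in untreated and 1.04, 1.28 and 1.36 in exposed libraries at 24 h, and 0.76, 1.03 and 1.32 against 6.24, 7.38 and 6.59 at 144 h. The exposed libraries were above the untreated ones at both times without overlap. The ratio of the means was 1.70 at 24 h and 6.50 at 144 h, and the two-sided exact permutation test gave p = 0.1 at each, the smallest that 3 against 3 allows. Entered as 1 feature in the limma fit, the sum rose by 0.69 (adjusted p = 0.0124) and 2.61 (adjusted p = 1.52e-08) on the log2 scale, with an interaction of 1.93 (adjusted p = 3.40e-05). This limma fit of the sum was chosen after seeing the data.

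The other UGT1A genes were below the level tested, and 3 of them were highest in every library of the TPN 144 h group. UGT1A3, which acts on bile acids and estrogens, was between 0.06 and 0.13 FPKM in the 9 libraries outside the TPN 144 h group and at 0.75, 0.96 and 0.72 in it. UGT1A4 was at most 0.05 elsewhere and at 0.18, 0.35 and 0.19 with TPN at 144 h, and UGT1A9 at most 0.09 elsewhere and at 0.32, 0.38 and 0.25. These 3 genes rest on about 32.7, 9.70 and 12.4 fragments on average with TPN at 144 h. Only 22.9%, 30.9% and 31.1% of their 50-base windows occurred in no other gene. Whether they rose themselves or were given reads of the exons they share with UGT1A1 was not tested. UGT1A5 and UGT1A7 never exceeded 0.09 FPKM. UGT1A1 held 40.7%, 34.2%, 20.3% and 46.8% of the summed level in the 24 h untreated, 24 h exposed, 144 h untreated and 144 h exposed spheroids, and UGT1A6 33.8%, 51.9%, 64.6% and 32.3%. UGT1A1 and UGT1A6 were thus the leading UGT1A genes by mean in every group, in an order that changed between groups. That order also changed between libraries of a group at 24 h. In the untreated 24 h libraries UGT1A1 held 51.4%, 25.3% and 46.4% and UGT1A6 23.6%, 52% and 24.6%. Among the 144 h libraries the order of the means held in each, though replicate 2 with TPN was near even (38.9% and 38.2%). The shares also depend on how shared reads were split.

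**Figure D2:**
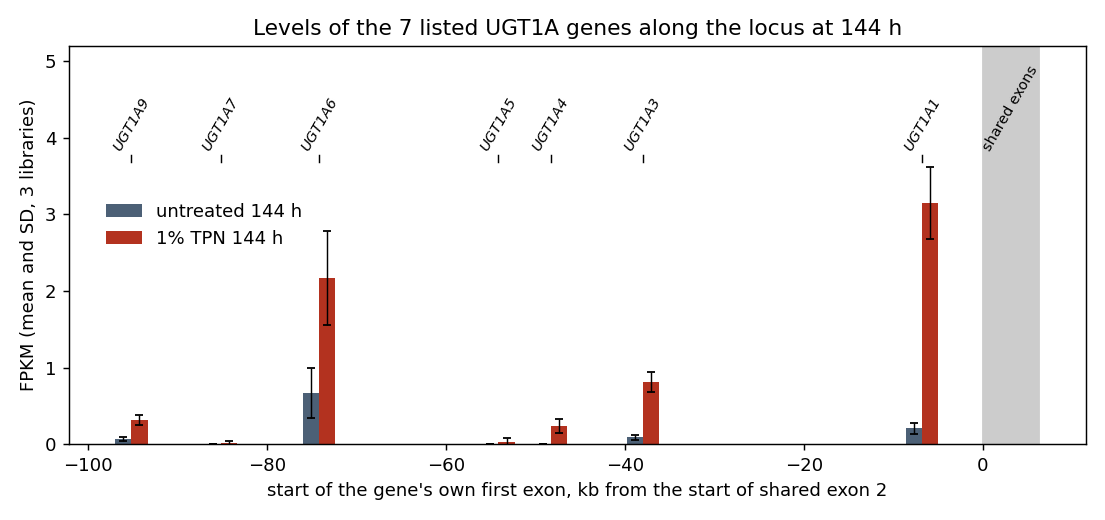
Mean level (FPKM, SD whiskers, n = 3) of the 7 listed UGT1A genes at 144 h, untreated and with 1% TPN, drawn as bars beside the place of each gene's own first exon, in kb from the start of shared exon 2 (grey block: exons 2 to 5). The tallest TPN bars belong to UGT1A1 (3.15 FPKM), 6.76 kb from exon 2, and UGT1A6 (2.17), 74.1 kb from it.

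Among the UGT2B genes, UGT2B4 was at 0.73, 0.59 and 0.69 FPKM in untreated and at 1.30, 1.11 and 1.28 in exposed libraries at 144 h. The groups did not overlap. The means differed 1.84-fold (log2 fold change 0.79, SE 0.27, 95% interval 0.22 to 1.36, limma adjusted p = 0.0232), a call that was lost with a pseudocount of 0.01 (adjusted p = 0.145) and without untreated 144 h replicate 2 or 3 (adjusted p = 0.0761 and 0.0504). With a pseudocount of 1 it was 0.42, under the 0.58 of the rule, and without TPN 144 h replicate 1, 2 or 3 UGT2B4 fell below the level tested, so that none of its calls could be made. With culture time alone, the untreated level of UGT2B4 was 2.13 higher on the log2 scale at 144 h than at 24 h (SE 0.27, limma adjusted p = 6.89e-06), or 0.63 with a pseudocount of 1. The interaction of TPN and time was 0.64 (95% interval -0.17 to 1.45, adjusted p = 0.221), and it passed with a pseudocount of 1 (0.38, adjusted p = 0.0140) and without TPN 24 h replicate 2 (0.95, adjusted p = 0.0417).

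UGT2B10 was at 19.13, 20.05 and 18.67 FPKM in untreated and at 22.04, 20.06 and 21.32 in exposed libraries at 144 h. The ranges were 0.01 FPKM apart. The log2 fold change was 0.13 (SE 0.044, 95% interval 0.037 to 0.23, limma adjusted p = 0.0217), a change of 1.10-fold. That call was lost without untreated 144 h replicate 1 or 3 or without TPN 144 h replicate 1 or 3 (adjusted p = 0.0554, 0.0839, 0.0956 and 0.0569). The change at 144 h exceeded that at 24 h by 0.18 (SE 0.062, adjusted p = 0.0405), which was lost when 8 of the 12 libraries were left out in turn, 2 of each group, with adjusted p between 0.0563 and 0.0957.

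UGT2B7 was at 15.05, 13.44 and 13.43 FPKM without and at 13.52, 13.34 and 15.14 with TPN at 144 h. The groups lay on top of each other. The log2 fold change was 0.0025 (95% interval -0.12 to 0.12, limma adjusted p = 0.976), and its sign turned with single libraries (-0.055 to 0.057). Over the 7 listed UGT2B genes the sum was 34.2 FPKM (SD 1.13) in untreated and 36.7 (SD 1.73) in exposed spheroids at 144 h (exact permutation p = 0.2, two-sided). At 24 h it was 41.3 (SD 0.575) and 40.1 (SD 0.864), also with an exact permutation p = 0.2. Entered as 1 feature in limma, also a choice made after seeing the data, the UGT2B sum passed at 144 h (0.10 on the log2 scale, adjusted p = 0.0348) and not at 24 h (-0.045, adjusted p = 0.529). UGT2B15 was at 0 in the untreated and at 0.03, 0.09 and 0.03 in the exposed libraries at 144 h, about 3.14 fragments at most.

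UGDH was at 144.41, 139.56 and 138.60 FPKM in untreated libraries at 144 h and at 215.69, 216.59 and 218.13 with TPN. The exposed libraries were again close together and clear of the controls. The means differed 1.54-fold (log2 fold change 0.62, SE 0.027, 95% interval 0.56 to 0.68, limma adjusted p = 6.86e-10). The rise at 144 h exceeded that at 24 h by 0.10 on the log2 scale (95% interval 0.020 to 0.18), which did not pass after adjustment (adjusted p = 0.0579), though it did with quantile normalization (adjusted p = 0.0322) and without untreated 24 h replicate 3 (adjusted p = 0.0416) or untreated 144 h replicate 1 (adjusted p = 0.0351).

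At 144 h, 4 of the 6 tested members (UGT1A1, UGT1A6, UGT2B4 and UGDH) met the rule for differentially expressed genes, all of them upward, beside 9.48% of all genes tested, and 5 passed by adjusted p alone, beside 52.5%. A pass by adjusted p alone, as for UGT2B10, was thus shared by most genes at this time. For the interaction of TPN and time, 1 member (UGT1A1) met the rule, beside 5.87% of all genes, and 2 passed by adjusted p, beside 30.4%. UGT1A1 and UGT2B4 reached the tested set only through the libraries with TPN at 144 h, so these counts too are descriptions. The same limit holds for the p-values of UGT1A1 and UGT2B4 given above.

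**Figure D3:**
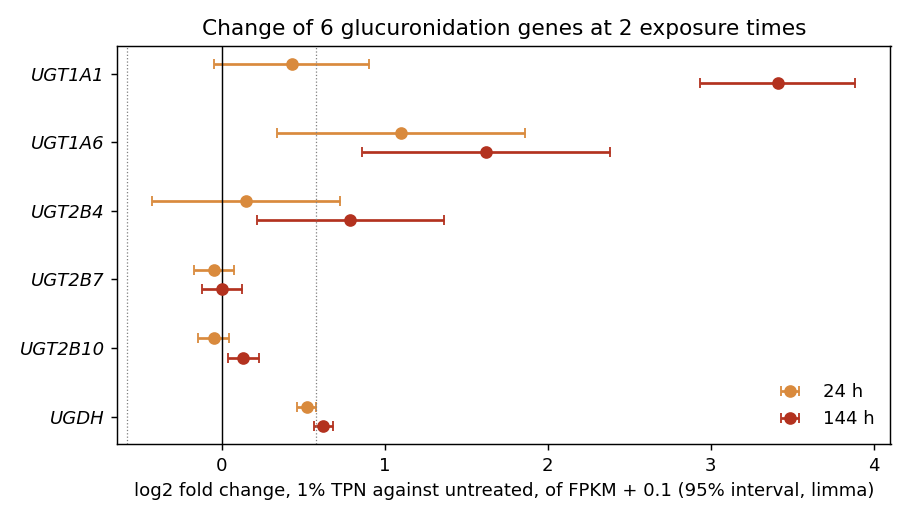
Log2 fold change of FPKM + 0.1, 1% TPN against untreated, for the 6 tested genes at 24 h and 144 h, with the 95% interval from limma; dotted lines stand at an absolute value of 0.58. UGT1A1 at 144 h (3.41) was the only value above 2, and the intervals of UGT2B7 crossed 0 at both times.

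The spheroids themselves changed between 24 h and 144 h of culture without TPN, and the transferases changed in opposite directions. UGT2B4 and UGT1A6 rose (above), and UGT2B7 fell by 0.46 on the log2 scale (SE 0.057, limma adjusted p = 6.70e-06), from a mean of 19.2 to 14.0 FPKM, and by 0.28 with median-ratio scaling (adjusted p = 6.37e-04). UGT2B10 (-0.18, adjusted p = 0.00219) and UGDH (-0.16, adjusted p = 1.12e-04) were lower by about the median of all tested genes, which was -0.18 in this comparison. With median-ratio scaling, which takes that shift out, the values were -0.0017 for UGT2B10 (adjusted p = 0.975) and 0.019 for UGDH (adjusted p = 0.546). Of the 6 tested members 2 (UGT1A6 and UGT2B4) met the rule with fold change, beside 19% of all genes, and 5 passed by adjusted p, beside 72.6%. Both UGT1A6 and UGT2B4 were too low to test in the untreated libraries alone. This comparison shares its untreated libraries with the TPN comparisons above.

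Hepatocyte, stellate and other marker genes were summed in the same libraries as a check on the cells. The 8 hepatocyte markers, ALB and APOA1 among them, were all tested and summed to 11917 to 12282 FPKM in untreated 24 h libraries, 10978 to 11011 with TPN at 24 h, 13277 to 14257 in untreated 144 h libraries and 10362 to 11097 with TPN at 144 h. The 9 stellate markers summed to 94.96 to 100.55, 82.0 to 86.2, 53.9 to 59.3 and 48.6 to 50.9 FPKM in the same order, with DES and LUM below 0.1 in every library. Most of the stellate sum was ACTA2, with group means of 45.4 to 57.8 FPKM. Of 7 tested stellate markers, ACTA2 alone fell at 24 h (-0.29 on the log2 scale, limma adjusted p = 4.23e-04), and 5 fell at 144 h, with a median of -1.07, among them COL1A1 (-1.25), COL1A2 (-1.07), COL3A1 (-1.40) and VIM (-1.07) but not ACTA2 (-0.076, adjusted p = 0.130). Of the 8 hepatocyte markers 5 fell at 24 h and 6 at 144 h. In either direction, 10.5% of all tested genes passed by adjusted p at 24 h and 52.5% at 144 h. In bulk libraries, fewer cells of a type and less RNA per cell cannot be told apart. The 4 biliary markers summed to 333.94 to 351.75, 320.4 to 327.11, 301.38 to 312.72 and 270.59 to 280.07 FPKM in the same order, from KRT19, EPCAM and SOX9, with KRT7 below 0.1 throughout. KRT19 fell with TPN at both times (-0.25 and -0.52, adjusted p = 7.02e-04 and 8.28e-08), and EPCAM and SOX9 did not pass. The 4 listed macrophage markers summed to 47.2 to 48.96, 51.77 to 56.13, 48.97 to 49.46 and 63.19 to 66.15, nearly all of it CD68, a lysosomal protein gene, which rose (0.17 and 0.41, adjusted p = 0.00373 and 1.84e-07), while MARCO and PTPRC were below 0.1 throughout. The 4 endothelial markers summed to at most 0.53. These markers moved in the same libraries as UGT1A1 and UGDH, and their part in the members' results was not tested. The total of all FPKM values was 561657 to 583722 per library.

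UGT2A3, a hepatic and intestinal transferase that acts on bile acids, was the most abundant transferase in the table and the 1 tested UGT outside the members. It was at 61.49, 64.93 and 61.97 FPKM in untreated and 55.92, 54.79 and 54.30 in exposed libraries at 24 h, and at 46.29, 42.37 and 42.44 against 36.72, 33.43 and 35.76 at 144 h. It was lower with TPN at both times without overlap. The log2 fold changes were -0.19 (SE 0.043, limma adjusted p = 0.0109) and -0.31 (adjusted p = 4.28e-05), opposite in sign to those of UGT1A1. Of the remaining listed UGTs, UGT2B11, UGT2B17, UGT2B28, UGT2A2 and UGT8 stayed below 0.5 FPKM in every library.

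The supply of the donor sugar was followed in a list of 18 genes that make, move or use UDP-glucuronic acid, 14 of them tested. At 24 h 1 rose (SLC35D2), 1 fell (SLC35D1) and 12 did not pass, the median being -0.016 on the log2 scale. At 144 h 6 rose and 5 fell, with a median of 0.020, beside -0.018 over all genes. Of all tested genes 10.5% passed by adjusted p at 24 h and 52.5% at 144 h. SLC35D1, which carries UDP-glucuronic acid into the endoplasmic reticulum, fell at both times (-0.21, limma adjusted p = 0.0237, and -0.39, adjusted p = 3.26e-05), while UGDH, a step before it, rose. UGP2, which makes UDP-glucose, was at 0.037 at 144 h (adjusted p = 0.420).

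At 144 h 2 genes of this list met the rule with fold change, beside 9.48% of all tested genes. HAS3, a hyaluronan synthase that spends UDP-glucuronic acid, was 1.64 higher on the log2 scale (adjusted p = 3.24e-07), from a mean of 1.22 to 4 FPKM. HK1, a hexokinase at the entry of glucose, was 1.10 higher (adjusted p = 4.51e-06), from 0.443 to 1.06 FPKM, both below its 24 h levels of 1.42 and 1.28. HK2, the far more abundant hexokinase of the list, was level at 144 h. Its means were 235 FPKM in untreated and 236 in exposed spheroids (0.0033 on the log2 scale, limma adjusted p = 0.948). In the list of 6 genes that break down glucuronate, 1 rose and 2 fell at 24 h and 5 fell at 144 h, the last with a median of -0.19. These counts stand beside 10.5% of all tested genes that passed at 24 h and 52.5% at 144 h. RGN, a gluconolactonase, was 0.69 lower at 144 h (adjusted p = 1.46e-07), and DCXR, which reduces xylulose, 0.47 lower (adjusted p = 3.12e-06).

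Bilirubin is made from heme by heme oxygenase and biliverdin reductase, and leaves the hepatocyte through ABCC2 toward bile or ABCC3 toward blood after UGT1A1 has acted. Of 11 genes of this path 10 were listed and 9 tested. At 24 h 4 rose and 1 fell, and at 144 h 6 rose and 1 fell, with medians of 0.25 and 0.98 on the log2 scale. Of all 11713 tested genes, 590 were up and 640 down at 24 h, against 2829 up and 3315 down at 144 h, the medians being -0.0045 and -0.018. HMOX1, the inducible heme oxygenase, was 1.54 higher at 24 h (limma adjusted p = 3.63e-11) and 2.14 higher at 144 h (adjusted p = 3.78e-13), with means of 97.2 and 283 FPKM at 24 h and 72.5 and 320 at 144 h. BLVRB was 0.26 higher at 24 h and 0.64 higher at 144 h (adjusted p = 0.0118 and 9.79e-07), whereas BLVRA, the reductase for the bilirubin isomer of the adult, was at -0.051 and -0.031 (adjusted p = 0.515 and 0.565).

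ABCC2 was 0.74 higher at 24 h and 0.98 higher at 144 h, and ABCC3 0.48 and 1.48 (adjusted p at most 1.33e-06). GSTA1 and GSTA2, glutathione transferases that also bind bilirubin in the cytosol, were 1.78 and 2.07 higher at 144 h (adjusted p = 1.41e-08 and 7.75e-09) and did not pass at 24 h. These 2 are close paralogs, and how their reads were split is uncertain. ALB, the carrier of bilirubin in blood, was 0.20 lower at 24 h and 0.65 lower at 144 h (adjusted p = 0.0104 and 4.69e-08).

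**Figure D4:**
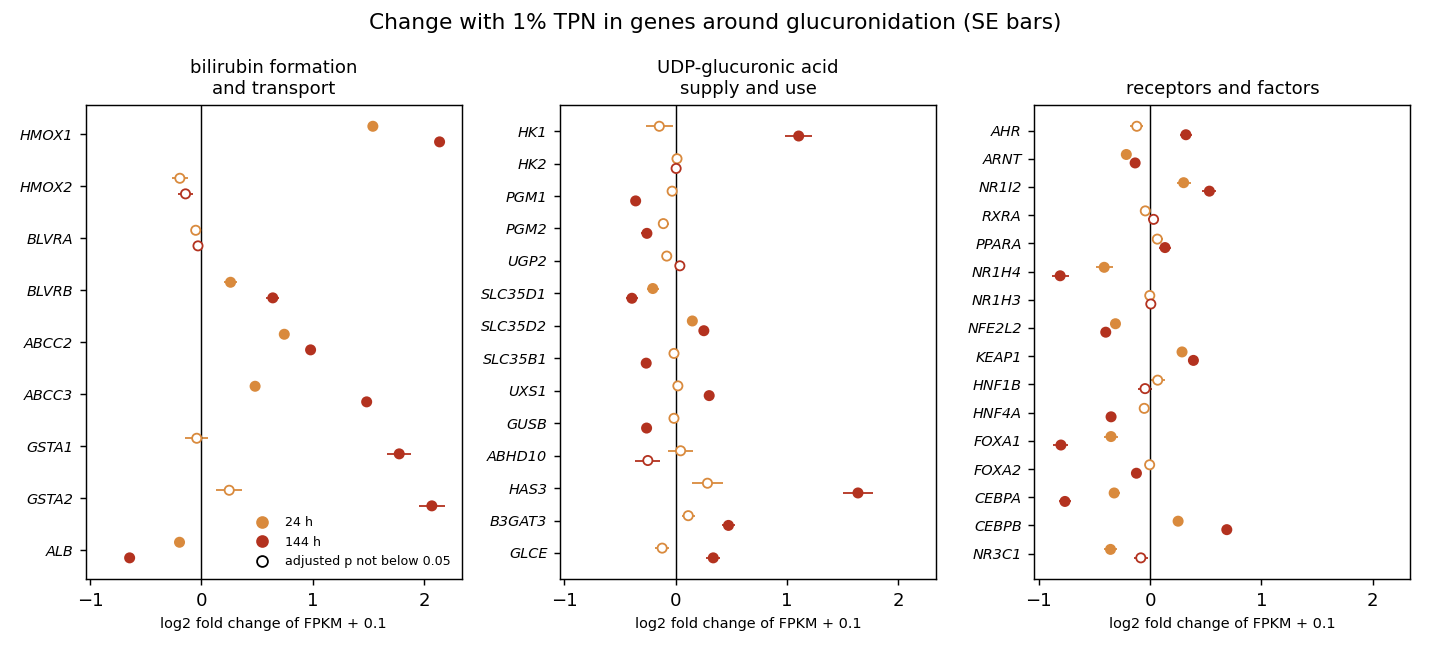
Log2 fold change of FPKM + 0.1 with 1% TPN at 24 h and 144 h, with limma standard errors, for tested genes of bilirubin formation and transport (9), UDP-glucuronic acid supply and use (14) and factors known to act on UGT genes (16). Open circles did not pass at adjusted p below 0.05; HMOX1 stood at 1.54 and 2.14, and GSTA2 passed at 144 h (2.07) but not at 24 h.

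UGT genes are known to be switched on by ligand-activated receptors, among them AHR, PXR (NR1I2), CAR (NR1I3) and PPARA, by NRF2 (NFE2L2) and by liver factors such as HNF4A. Of 19 such genes 16 were tested. At 24 h 3 rose and 6 fell, and at 144 h 5 rose and 7 fell, with medians of -0.048 and -0.064. Of all tested genes 10.5% passed by adjusted p at 24 h and 52.5% at 144 h. NR1I2 was 0.30 higher at 24 h (limma adjusted p = 0.00743) and 0.53 higher at 144 h (adjusted p = 1.01e-05), and AHR passed at 144 h with 0.32 (adjusted p = 3.38e-04). NFE2L2 fell at both times (-0.31 and -0.40, adjusted p = 1.95e-05 and 1.93e-07), and HNF4A at 144 h (-0.35, adjusted p = 2.36e-07).

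At 144 h 4 of these factors met the rule with fold change, beside 9.48% of all tested genes. NR1H4, the bile acid receptor, was 0.81 lower, FOXA1 0.80 lower and CEBPA 0.77 lower, and CEBPB was 0.69 higher (adjusted p at most 1.35e-06). Transcripts of a factor do not measure its activity. Genes known to answer to some of these factors were counted as well, in lists chosen with earlier results of these data known. Whether any of the factors acted on the members was not tested. Of 13 genes known to respond to NRF2, 12 were tested and all 12 rose at both times, with medians of 1.01 at 24 h and 1.29 at 144 h. In either direction, 10.5% of all tested genes passed by adjusted p at 24 h and 52.5% at 144 h. GCLM and GCLC, the subunits of the enzyme that starts glutathione synthesis, were 1.69 and 1.11 higher at 24 h and 2.14 and 1.63 higher at 144 h (adjusted p at most 9.94e-09).

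Others of that list past the rule with fold change at both times were NQO1, TXNRD1, SRXN1, SLC7A11 and OSGIN1, with HMOX1, and TALDO1 joined them at 144 h (0.74). Of 6 tested genes known to answer to AHR or PXR, 3 fell at 24 h and none rose, while 3 rose and 1 fell at 144 h. These counts too stand beside 10.5% of all tested genes that passed at 24 h and 52.5% at 144 h. CYP3A7 was 1.14 lower at 24 h (adjusted p = 2.67e-05) and 0.58 lower at 144 h (adjusted p = 9.68e-04). CYP1A1, the classic AHR target, was 0.47 lower at 24 h and 0.71 higher at 144 h (adjusted p = 0.00343 and 1.28e-05), and CYP2B6 1.32 higher at 144 h (adjusted p = 4.29e-09). CYP2B6 at 24 h did not pass (0.22, adjusted p = 0.0629). TIPARP, of the same list, did not pass at either time (-0.070 and -0.051, limma adjusted p = 0.504 and 0.475). CYP3A5 was 0.56 lower at 24 h (adjusted p = 0.0188) and did not pass at 144 h (-0.11, adjusted p = 0.535). CYP3A4 was at most 0.09 FPKM and was not tested.

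The table's own annotation placed 30 genes in the KEGG pathway of pentose and glucuronate interconversions, the members among them, and 19 were tested. At 24 h 4 rose and 2 fell, and at 144 h 7 rose and 6 fell, with medians of 0.029 and 0.046. Of the 7 that rose at 144 h, all but AKR1B1 and AKR1B10 were members, and none of the 6 that fell was a member. Of all tested genes 10.5% passed by adjusted p at 24 h and 52.5% at 144 h. Outside the members, AKR1B10, an aldo-keto reductase, was 1.43 higher at 24 h and 2.26 higher at 144 h (adjusted p = 9.65e-10 and 1.82e-12). DHDH, a dihydrodiol dehydrogenase, was 1.15 higher at 24 h (adjusted p = 0.00373) and 0.36 at 144 h (adjusted p = 0.185), at levels of 0.577 to 2.86 FPKM.

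For each tested member the genes with the most similar pattern were found by Pearson correlation of log2 values over the 12 libraries, as a description. These points share libraries and group means, so the values mostly tell which genes had a similar order of the 4 groups. ACSL5 (r = 0.99), GSTA2 (0.98) and CDKN1A (0.98) were closest to UGT1A1, and each had its highest group mean with TPN at 144 h. PIK3CD, DNAJB4 and GCLM were closest to UGDH (r = 0.99 each), with higher means with TPN at both times. For UGT2B4 they were KYAT1, HDAC11 and EEF2 (r = 0.99 each), for UGT2B7 SRP9, DOLK and ZNF512 (0.99 each), for UGT1A6 EPS8L3, NPIPB9 and SLC7A5 (0.94, 0.94 and 0.93), and for UGT2B10 LDB1, MR1 and PLEKHO2 (0.91, 0.91 and 0.90). None of the 18 was a member.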

How the data were processed

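The mRNA libraries of pooled spheroids were strand-specific and sequenced as DNA nanoballs. The authors filtered reads, aligned them to GRCh38.p13 and estimated gene levels with RSEM. The submitters' processing notes name HISAT2 2.0.4 and Bowtie2 2.2.5. The deposited table gives FPKM per gene and library, rounded by the authors, with no counts, so a count test was not run and depth is only estimated. A total of 20 broken lines of the table were dropped.

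Groups came from the sample labels. Genes with a mean of at least 0.5 FPKM over the 12 libraries were tested with limma 3.58.1 (R 4.3.3) on log2(FPKM + 0.1) in 4 groups, with an intensity trend and Benjamini-Hochberg adjustment over all 11713 genes. Fold changes are on that scale, which understates changes of low genes. Differentially expressed means an adjusted p under 0.05 with a log2 change of more than 0.58 in either direction. Family sums were compared by exact permutation (scipy 1.17.1). The fit was tested on simulated data. Replicates are described by the study as independent experiments. The members, the gene lists, the named genes (members, other UGTs, list genes past the rule and up to 3 more per list, HK2, and the 3 most alike genes) and the tests were chosen with earlier results of these data known. Alternatives were other pseudocounts, filters and scalings, no trend, a replicate block, fewer libraries and single libraries left out. Sequences and positions came from GENCODE v44 and RefSeq; of the members, all but UGT2B4 had a promoter entry. Of the fixed list of factors, 1 gene is not reported here.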

Additional observations from a re-analysis of the deposited data

Results flagged for a closer look

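The changes with TPN differed between 24 h and 144 h for 2 members by the test of the difference itself. For UGT1A1 the log2 fold change at 144 h was 2.98 above that at 24 h (limma interaction, adjusted p = 1.67e-05), and over 20 alternatives it stayed between 1.64 and 3.34 and past the threshold. For UGT2B10 the difference was 0.18 (adjusted p = 0.0405), from -0.050 at 24 h to 0.13 at 144 h, and it missed the threshold in 11 of 21 alternatives, with adjusted p from 0.0179 to 0.0957 over all 21. Both stand beside 30.4% of all tested genes that passed the same interaction test. UGT1A1 reached the tested set only through the libraries with TPN at 144 h, so its p-value is a description.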

How the results depend on the processing

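Of the members' log2 fold changes under the alternatives, 452 kept direction and side of the threshold, 22 lost the call, 11 gained it and 7 changed sign. Members called at 24 h, 0 in the report, were 1 with no fold-change threshold (UGDH), 1 with a replicate block (UGT1A6, 1.10, adjusted p = 0.0354) and 0 to 1 with single libraries left out. At 144 h the 4 calls became 1 with a mean of at least 5 FPKM, since low members then left the test, 3 with a pseudocount of 1 or 0.01, 5 with no fold-change threshold, and 3 to 4 with single libraries left out. For the interaction the 1 call became 2 with no fold-change threshold, 0 at 5 FPKM and 1 to 2 with single libraries left out. For untreated culture time the 2 calls became 5 with no fold-change threshold, 1 with a pseudocount of 1, and 1 to 2 with single libraries left out. They became 0 at 5 FPKM and 0 with only the libraries compared, since both genes then left the test. Signs turned for UGT2B4 at 24 h (-0.16 to 0.44 with single libraries left out), for UGT2B7 at 144 h (-0.012 with equal totals; -0.055 to 0.057 with single libraries left out) and in its interaction (-0.0090 to 0.10), and for UGDH over culture time (0.019 with median-ratio scaling); apart from scaling, the cause was not tested. Tested with limma instead of permutation, a choice made after seeing the data, the UGT1A sum passed at 24 h (0.69) and 144 h (2.61) and the UGT2B sum at 144 h (0.10). Whether the replicate numbers pair the libraries is not settled. Same-numbered pairs correlated at -0.083 to 0.15, with 5 of 18 above 0.1, and 7 of 12 libraries were closest to their own number. Apart from UGT1A6 at 24 h, the block changed no member's call. Low levels limit UGT1A1, UGT1A6 and UGT2B4 to group means of an estimated 2.62 to 27.4 fragments in untreated spheroids.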
